A study of Rattus norvegicus with 9 samples.

Results

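Parenchymal nerve fibroblasts (Fb-Par) were compared with skin fibroblasts (Fb-Skn) by RNA sequencing of cultured rat cells. The comparison used the 3 Fb-Par and the 3 Fb-Skn samples, 6 of the 9 samples of the series, and all genes of the deposited tables. The remaining 3 samples, epineurial fibroblasts (Fb-Epn), entered only the estimate of the spread and serve as background where they are named. All cells came from wild-type male rats of the Lewis strain at 10 weeks of age and had been passaged 1 time. Fb-Par were grown from the inner tissue of the sciatic nerve, left after the epineurium had been pulled off by hand, of 2 rats, and Fb-Skn from the abdominal skin of 1 other rat after the fat beneath it had been cut away. Neither tissue was sorted. Both were digested and grown in the same serum-containing medium, which was replaced soon after seeding. Since 3 samples of each type came from so few rats, animals were shared among them, and nothing says whether the samples were grown as separate cultures. The p-values therefore measure the spread between these samples alone, which may be technical. Tissue, rat and body site cannot be told apart between the types.

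The inside of a peripheral nerve holds endoneurial fibroblasts among the axons and Schwann cells, and perineurial cells that form a layered barrier around each bundle of axons. Dermal fibroblasts build the collagen-rich matrix beneath the epidermis and signal to hair follicles. Fibroblasts of different body sites are known to keep the transcription factor pattern of their site of origin in culture, above all that of the *Hox* genes, and to differ in the matrix and the signalling proteins they release.

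Total counts ranged from 10287389 to 11886198 in the Fb-Par libraries and from 10084584 to 11144763 in the Fb-Skn libraries. Over all tested genes, 2 libraries of the same type correlated with a Pearson's r of 0.987 to 0.990 on the log2(TPM + 1) scale, and a Fb-Par with a Fb-Skn library with 0.910 to 0.913, with genes that are no independent replicates as the points. edgeR tested 13273 genes, and fold changes are given on the log2 scale as Fb-Par over Fb-Skn with an approximate standard error. At a Benjamini-Hochberg adjusted p under 0.01, 6052 genes (45.6%) differed, and Fb-Par had higher levels for 3077 (23.2%) and lower levels for 2975 (22.4%) of the tested genes. DE genes, which also changed by more than 4-fold, were uneven between the directions, with 778 (5.86%) higher and 355 (2.67%) lower in Fb-Par. Of the DE genes, 90 had 0 counts in every Fb-Skn library and 31 had 0 counts in every Fb-Par library. The even split at the adjusted p depended on the scaling. With library size alone, 3737 genes were higher and 2297 lower, and with limma on log2(TPM + 1), whose median over all genes was 0.12 against -0.01 in edgeR, 3902 were higher and 1931 lower. Counts below are to be read against these shares, since a list with about 1 in 4 members called in each direction is like the rest of the genes. A filter of 10 counts in every library left 11313 genes, 2582 of them higher and 2523 lower. List counts under this filter cover only the members it left, and not all members tested in the main fit. Levels are TPM, a transcript's share scaled for gene length and library size, and are given in the order of samples 1, 2 and 3. "Higher" and "lower" refer to Fb-Par relative to Fb-Skn throughout. Most genes named below were chosen by their call or size of change. Libraries that do not overlap between the types are therefore no further evidence for them. The share of all tested genes without such overlap is not given here.

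**Figure D1:**
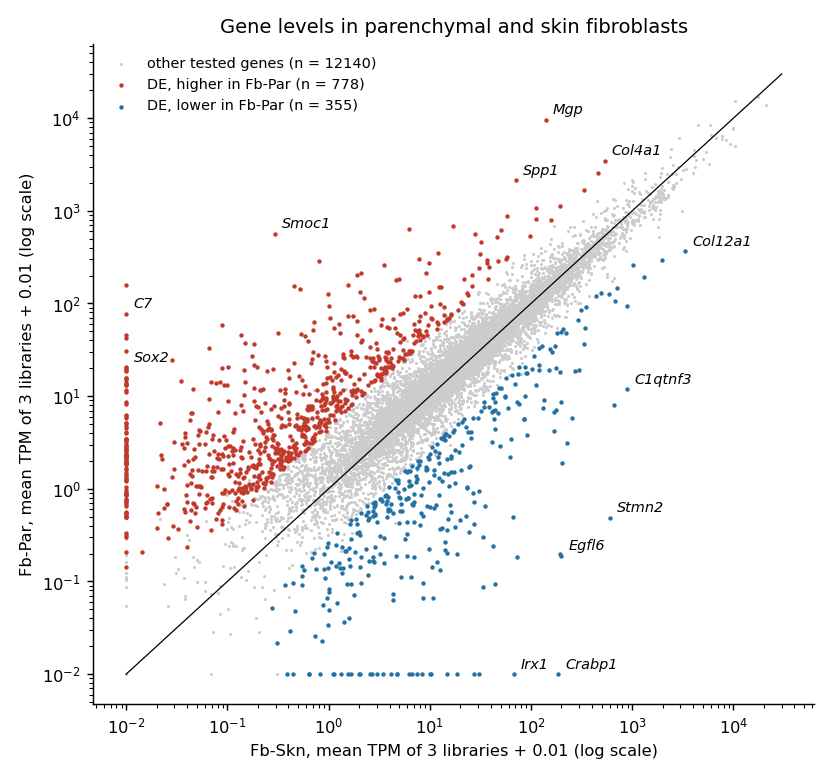
Mean TPM of each tested gene in Fb-Par (vertical axis) and Fb-Skn (horizontal axis), 3 libraries each, with 0.01 added on log scales; coloured points are DE genes (778 higher and 355 lower in Fb-Par) and the line marks equal levels. *Smoc1* and *Mgp* lie far above the line, and *C1qtnf3* and *Stmn2* far below it.

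The most abundant DE gene of Fb-Par was *Mgp* (ENSRNOG00000005695, chromosome 4, 170856751 to 170860225 of rn6), which encodes matrix Gla protein, an inhibitor of calcification. Its TPM was 9793, 9324 and 9742 in Fb-Par and 141, 133 and 144 in Fb-Skn. It was 62.1-fold higher in Fb-Par (log2 fold change 5.96 ± 0.039, adjusted p = 7.6e-20), and no library of one type came near the other. The next by level were *Col4a1* and *Col4a2*, the chains of the ubiquitous collagen IV network of basement membranes. For *Col4a1*, TPM was 3360, 3500 and 3560 in Fb-Par and 530.4, 546 and 525 in Fb-Skn (log2 fold change 2.55 ± 0.026, adjusted p = 6.8e-18). *Spp1*, the secreted phosphoprotein osteopontin, followed with a TPM of 2074, 2181 and 2193 in Fb-Par and 67.8, 74.2 and 71.5 in Fb-Skn (log2 fold change 4.77 ± 0.039, adjusted p = 1.2e-18). *Col8a1*, a short-chain collagen of subendothelial and corneal matrix, and *Plpp3*, a phosphatase that breaks down lysophosphatidic acid, were 4.57-fold and 5.28-fold higher. All 6 libraries of each of these genes fell into 2 ranges that did not overlap, which the choice of DE genes makes likely.

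Among DE genes with a mean TPM of at least 20 in the higher type, those with the largest estimated change in Fb-Par included *Smoc1*, a calcium-binding protein of basement membranes that modulates BMP signals. Its TPM was 575, 552 and 578 in Fb-Par and 0, 0.6103 and 0.242 in Fb-Skn, with 4511 to 5432 counts per library in Fb-Par against 0 to 5 in Fb-Skn (adjusted p = 1e-16). *C7* and *Sox10*, described with complement and with Schwann cell markers, also belong to this group. *Sox2*, a transcription factor of progenitor cells and of immature Schwann cells, had a TPM of 20.8, 20.2 and 20.3 in Fb-Par and 0 counts in every Fb-Skn library (at least 71.1-fold higher, adjusted p = 3.8e-11). *Fgf5*, a fibroblast growth factor, had a TPM of 38.9, 50.3 and 47.3 in Fb-Par and without a count in Fb-Skn was at least 54.6-fold higher (adjusted p = 7.3e-10). *Qprt*, an enzyme of NAD synthesis, was at least 36.6-fold higher (adjusted p = 3.9e-10). The 3 genes were also present in Fb-Epn, where the mean TPM was 7.48 for *Sox2*, 23.5 for *Fgf5* and 30.5 for *Qprt*. None of them had a single count in Fb-Skn.

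Of the 6 most abundant DE genes that were higher in Fb-Skn, 3 encode well-known matrix proteins. For *Col12a1*, a collagen that sits on the surface of collagen I fibrils, TPM was 3025, 3505 and 3405 in Fb-Skn and 371, 353 and 383 in Fb-Par (log2 fold change -3.31 ± 0.054, adjusted p = 1.1e-15). *Thbs2*, the matricellular protein thrombospondin 2, had a TPM of 291, 300.3 and 298 in Fb-Par and 1898, 2008 and 1998 in Fb-Skn (log2 fold change -2.88 ± 0.024, adjusted p = 1.3e-18). *Tnc*, tenascin C, was 4.32-fold lower in Fb-Par, with Fb-Par libraries between 254 and 272 TPM and Fb-Skn libraries between 977 and 1050 TPM. Each of the 3 genes was lower in every Fb-Par library than in any Fb-Skn library. *C1qtnf3*, a secreted C1q-related protein, was 83.5-fold lower, from a TPM of 884, 902 and 891 in Fb-Skn to 11.3, 11.5 and 12.7 in Fb-Par. *Gadd45g*, a stress-response gene, was 10.4-fold lower, and *RGD1564664*, known only by its locus symbol, was 7.37-fold lower.

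Some genes were close to absent from Fb-Par and abundant in Fb-Skn. *Stmn2*, a regulator of microtubules best known from neurons, had a TPM of 615, 595 and 580.1 in Fb-Skn, while Fb-Par libraries held 1 to 7 counts (adjusted p = 3.6e-17). *Egfl6*, a matrix protein of the hair follicle region, had a TPM of 203, 194 and 202 in Fb-Skn and 1 to 5 counts in Fb-Par (adjusted p = 1.8e-16). *Lcn2*, a secreted protein that binds iron-carrying siderophores, had a TPM of 32, 29.3 and 29.8 in Fb-Skn and 0 counts in every Fb-Par library (at least 50.5-fold lower, adjusted p = 4.3e-10). *Irx1* and *Crabp1*, of the same group, are given with the positional and the retinoid genes.

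Both types carried the genes of the fibroblast label. All 13 fibroblast identity genes were tested and all differed, 8 higher and 5 lower in Fb-Par, each by less than 4-fold, with a median log2 fold change of 0.54. The 5 genes lower in Fb-Par were *Col1a1*, *Col1a2*, *Thy1*, *S100a4* and *Vim*. For *Thy1*, a surface glycoprotein used as a fibroblast marker, TPM was 1040, 975 and 1004 in Fb-Par and 3039, 3087 and 3158 in Fb-Skn (log2 fold change -1.77 ± 0.029, adjusted p = 1.1e-15). *S100a4*, a calcium-binding protein, was 3.85-fold lower (log2 fold change -1.95 ± 0.058, adjusted p = 9.1e-13). *Postn*, the matricellular protein periostin, was the member with the largest difference in the other direction, at a TPM of 1980, 2003 and 1999 in Fb-Par and 811, 824 and 829 in Fb-Skn (log2 fold change 1.13 ± 0.021, adjusted p = 3.2e-15). *Lum*, *Dcn*, *Col3a1*, *Pdgfra*, *Pdgfrb*, *Ddr2* and *Fap* were 1.403-fold higher (*Pdgfrb*) to 2.01-fold higher (*Lum*).

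Markers of the nerve compartments did not line up with the label of inner nerve tissue alone. Of 6 endoneurial markers tested, 3 were higher and 2 lower in Fb-Par (median 0.30). *Apod*, the lipid-binding protein apolipoprotein D, had a TPM of 41.6, 44.1 and 50.03 in Fb-Par, while at most 2 counts were seen in any Fb-Skn library (adjusted p = 2.1e-10). *Etv1*, an ETS transcription factor, was 5.56-fold higher (log2 fold change 2.48 ± 0.15, adjusted p = 2.7e-09). *Wif1*, a secreted Wnt inhibitor that marks endoneurial fibroblasts, went the other way, with a TPM of 1.302, 1.69 and 2.15 in Fb-Par and 24.7, 24.1 and 24.4 in Fb-Skn (log2 fold change -3.98 ± 0.25, adjusted p = 4.1e-09). The other lower member, *Cdkn2a*, lost its call without sample 1 or 2 of Fb-Par and without sample 2 or 3 of Fb-Skn. *Sox9*, another endoneurial marker, was at a TPM of 18.2, 15.4 and 16.2 in Fb-Par and 12.7, 15.4 and 14.5 in Fb-Skn and did not pass (adjusted p = 0.38). The perineurial markers were split likewise, since of 6 tested 2 were higher and 3 lower (median -0.22), among them *Ntn4*, a netrin found in basement membranes, at 4.805-fold higher, and *Slc2a1*, the glucose transporter of the perineurial barrier, at 2.19-fold lower. *Ocln*, the other higher member, stayed under 1 TPM and lost its call without any of the samples but sample 3 of Fb-Par. *Cldn1*, the tight junction protein that defines perineurial cells, had a mean TPM of 0.324 in Fb-Par and 0 in Fb-Skn and was too low to be tested. Epineurial markers were higher in Fb-Par in 6 of 7 tested cases (median 1.59), with *Clec3b*, the plasminogen-binding protein tetranectin, at a TPM of 308, 283 and 324 in Fb-Par and 7.58, 8.43 and 7.598 in Fb-Skn (log2 fold change 5.12 ± 0.086, adjusted p = 1.3e-15) and *Cd34*, a sialomucin of adventitial fibroblasts, at a TPM of 20.1, 22.6 and 19.8 in Fb-Par and 0.208, 0.238 and 0.118 in Fb-Skn. Summed over the list, epineurial markers came to 432 to 476 TPM in Fb-Par, 229 to 238 TPM in Fb-Epn and 52.3 to 64.8 TPM in Fb-Skn. The cells are therefore called Fb-Par by their dissection and not by a compartment marker.

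Dermal fibroblast markers were mostly lower in Fb-Par, 8 of 11 against 2 higher (median -1.09), and their summed TPM was 305 to 314 in Fb-Par and 825 to 857 in Fb-Skn. *Prdm1*, a transcriptional repressor of the upper dermal lineage, had a TPM of 0.201, 0.116 and 0.257 in Fb-Par and 13.3, 16.1 and 15.1 in Fb-Skn (log2 fold change -6.39 ± 0.18, adjusted p = 5.4e-13). *En1*, a homeobox factor that marks a fibroblast lineage of the trunk skin, had a TPM of 6.704, 4.23 and 5.86 in Fb-Par and 83.1, 85.9 and 87.4 in Fb-Skn (log2 fold change -4.07 ± 0.13, adjusted p = 1.3e-12). In Fb-Epn, *En1* was also high, at a TPM of 68.0, 58.6 and 71.7, whereas the whole list summed to 282.9 to 304.5 TPM there. *Pdpn*, *Nkd2*, *Axin2*, *Twist2* and *Col23a1* were also lower, and 5 members were under a filter of 10 counts in every library. The 2 members that were higher in Fb-Par, *Dlk1* and *Apcdd1*, had means of 1.74 and 6.93 TPM there, so both were low, and *Apcdd1* lost its call without sample 1 or 3 of Fb-Par and without sample 1 or 2 of Fb-Skn.

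Markers of other cell types of the nerve were present in Fb-Par. Schwann cell markers were higher in 10 of 12 tested cases and lower in none, with a median log2 fold change of 6.96, or 4.47 with the 5 genes that had 0 counts in Fb-Skn set at their lower bound. Their summed TPM was 300.5 to 308 in Fb-Par, 20.3 to 23.1 in Fb-Skn and 251 to 265 in Fb-Epn. *Sox10*, the transcription factor that specifies the lineage, had a TPM of 30.4, 30.1 and 32.3 in Fb-Par (at least 140-fold higher, adjusted p = 8.3e-13). *Erbb3*, the neuregulin receptor subunit of Schwann cells, had a TPM of 15.3, 15.99 and 15.4 (at least 138-fold higher, adjusted p = 7.4e-13). *S100b*, a calcium-binding protein of Schwann cells, had a TPM of 117, 125 and 116 in Fb-Par and 7.79, 9.21 and 6.88 in Fb-Skn. *Ngfr*, the low-affinity neurotrophin receptor, had a TPM of 63.4, 62 and 65.8 in Fb-Par and 0.789, 0.646 and 0.705 in Fb-Skn. The myelin gene *Mbp* reached 12.4, 13.8 and 17 TPM in Fb-Par. *Prx* and *Pmp2* did not pass, and *Mag* was too low to be tested. Under a filter of 10 counts in every library, which takes out genes near 0 in 1 type, 4 were higher. In bulk RNA, fewer cells of a type and less RNA per cell cannot be told apart.

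Leukocyte markers were higher in Fb-Par in all 11 tested cases (median 2.05), summing to 313 to 336 TPM in Fb-Par, 95.7 to 103 TPM in Fb-Skn and 1444 to 1529 TPM in Fb-Epn. The sum was mostly *Lyz2*, lysozyme, with a TPM of 183, 171 and 179 in Fb-Par and 57.98, 61.8 and 62.01 in Fb-Skn, while the pan-leukocyte gene *Ptprc* was at a TPM of 1.23, 1.54 and 1.55 in Fb-Par and 0.545, 0.333 and 0.206 in Fb-Skn, and the T and B cell genes *Cd3e*, *Cd79b* and *Ms4a1* were at 0 in all 6 libraries. Pericyte and smooth muscle markers were higher in 7 of 8 tested cases (median 3.43, or 1.83 with the 2 genes that had 0 counts in Fb-Skn at their bound). Their sum was 556 to 583 TPM in Fb-Par, 285 to 298 in Fb-Skn and 110.2 to 113 in Fb-Epn. The most abundant members changed little, with *Mcam* 1.58-fold higher (mean TPM 241 in Fb-Par and 138 in Fb-Skn) and *Myh11* 1.18-fold higher (164 and 125). *Notch3*, the Notch receptor of mural cells, had a TPM of 72.4, 71.7 and 73.3 in Fb-Par and 1.15, 1.87 and 1.62 in Fb-Skn (log2 fold change 5.41 ± 0.12, adjusted p = 2.4e-14). *Rgs5*, a regulator of G protein signalling typical of pericytes, had 12.04, 15.98 and 16.6 TPM in Fb-Par and 0 counts in Fb-Skn (at least 18.2-fold higher, adjusted p = 2.9e-07). Of 5 endothelial markers tested, *Tek* and *Tie1* were higher and *Egfl7* lower in Fb-Par. *Tie1* was low, with 14 to 18 counts per library in Fb-Par and at most 1 in Fb-Skn. The defining genes *Cdh5* and *Vwf* reached at most 0.136 TPM in any library of either type. Of 9 adipocyte markers, 5 were tested, and 4 of these were higher in Fb-Par (median 2.64). Among them were *Fabp4*, a fatty acid carrier, at a TPM of 16.9, 15.8 and 16.5 in Fb-Par and 0.5502, 0.6303 and 0.312 in Fb-Skn, and *Pparg*, the adipogenic receptor, at 5.72, 5.88 and 6.899 TPM against 0 counts in Fb-Skn. In Fb-Epn their mean TPM was 51.4 and 0.895. *Lpl*, the most abundant adipocyte marker, did not pass, at a TPM of 93.05, 91.9 and 86.6 in Fb-Par and 79.1, 83.25 and 85.5 in Fb-Skn (adjusted p = 0.77). Of 2 skeletal muscle markers tested, *Acta1* was higher (a TPM of 78.7, 91.5 and 87.6 in Fb-Par and 3.83, 1.76 and 2.03 in Fb-Skn), and *Myod1*, *Myf5*, *Pax7* and *Myog* were at 0 in all 6 libraries. Of 2 melanocyte markers tested, *Kit* was higher in Fb-Par, and *Dct* and *Tyr* were at 0. Only 1 of 12 keratinocyte markers could be tested, *Krt10*, which did not pass (mean TPM 3.53 in Fb-Par and 2.51 in Fb-Skn). *Krt14*, too low to be tested, had a TPM of 0, 0.0988 and 0 in Fb-Par and 1.46, 0.887 and 0.977 in Fb-Skn. *Perp*, also not tested, had a mean TPM of 0.141 in Fb-Par and 0.427 in Fb-Skn, and *Krt5* had 0 and 0.0443. Under the filter of 10 counts in every library, 7 leukocyte, 4 pericyte and no adipocyte markers were higher. The filter itself takes out members without counts in Fb-Skn, such as *Rgs5* and *Pparg*. Marker RNA in bulk samples identifies no cell. The study examined the purity of its cultures by immunolabelling, whose outcome is not reported here. From the RNA values, whether other cells were present, and how far they would contribute to the differences below, was not tested.

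**Figure D2:**
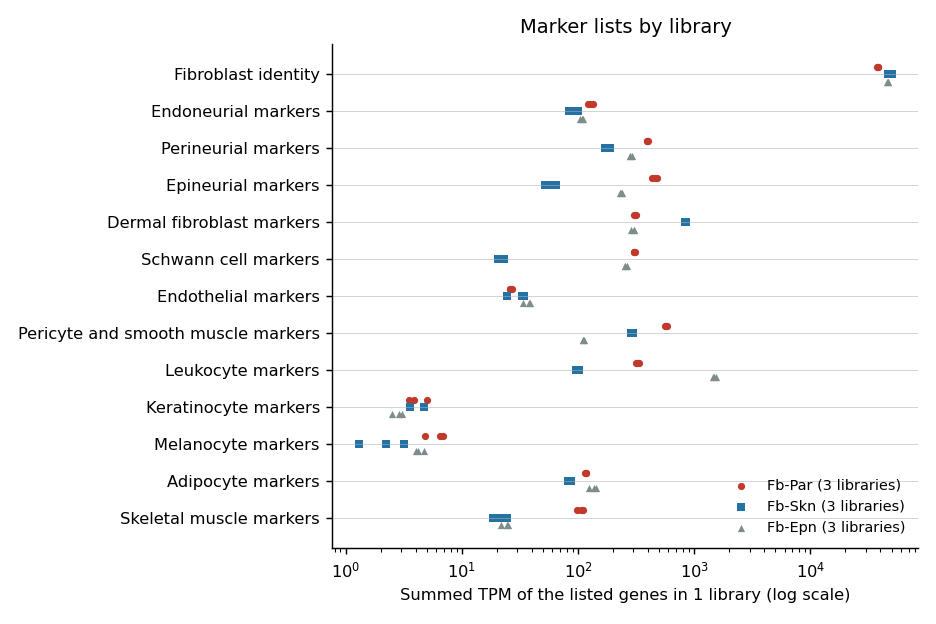
Summed TPM of each marker list in every library (horizontal axis, log scale), with Fb-Par as circles, Fb-Skn as squares and Fb-Epn as triangles, 3 libraries each. Fb-Par lie to the right of Fb-Skn for Schwann cell, leukocyte, pericyte and epineurial markers and to the left for dermal fibroblast and fibroblast identity markers.

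The *Hox* genes, homeobox factors laid out in 4 clusters whose order along the chromosome matches their order along the body axis, differed in a way that followed their clusters. Of 39 *Hox* genes listed, 18 were tested and all 18 differed, 15 lower and 3 higher in Fb-Par (median -1.38), though *Hoxc5*, *Hoxc6* and *Hoxd8* lost their calls in several of the alternatives. The 7 *Hoxb* genes tested were all lower in Fb-Par. *Hoxb2* had a TPM of 1.54, 0.7896 and 0.375 in Fb-Par and 25.3, 24.6 and 29.9 in Fb-Skn (log2 fold change -4.97 ± 0.35, adjusted p = 1.8e-08), and *Hoxb3* had a TPM of 1.53, 1.08 and 0.469 in Fb-Par and 25.1, 21.8 and 22.1 in Fb-Skn (log2 fold change -4.60 ± 0.28, adjusted p = 2.6e-09). *Hoxb9*, the most posterior of them, had a TPM of 11.8, 15.7 and 16.9 in Fb-Skn and 0 counts in every Fb-Par library (at least 25.9-fold lower, adjusted p = 5.2e-07). *Hoxb8* was also at 0 counts in Fb-Par, where *Hoxb4* and *Hoxb6* stayed under 1 TPM. None of the 7 *Hoxb* genes tested, all of them called, overlapped between the types, which their calls make likely and which is no further evidence.

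Within the *Hoxc* cluster on chromosome 7 the direction turned along the cluster. *Hoxc4* to *Hoxc9* were all lower in Fb-Par, and *Hoxc8* by far the most, with a TPM of 3.41, 5.12 and 3.93 in Fb-Par and 162, 165 and 178 in Fb-Skn (log2 fold change -5.50 ± 0.092, adjusted p = 1.3e-15). *Hoxc6* was lower by the smallest step, at a TPM of 16.8, 16.9 and 20.1 in Fb-Par and 25.96, 20.1 and 27.8 in Fb-Skn (log2 fold change -0.61 ± 0.16, adjusted p = 0.004), and its libraries overlapped between the types. It lost its call without sample 1 or 2 of Fb-Par, without sample 1 or 3 of Fb-Skn, with library size alone and with limma. *Hoxc5*, 1.93-fold lower, lost its call under the same scalings, with the replicate number as a block and without any of the samples but sample 3 of Fb-Skn. *Hoxc10* (chromosome 7, 144577465 to 144582622) was higher in Fb-Par, with a TPM of 63.5, 62.1 and 66.3 in Fb-Par and 15.5, 17.3 and 18.97 in Fb-Skn (log2 fold change 1.74 ± 0.094, adjusted p = 7.6e-10). *Hoxc11* (chromosome 7, 144565392 to 144567580), the next gene towards the posterior end, had 22.1, 17.97 and 15.3 TPM in Fb-Par and 0 counts in every Fb-Skn library (at least 25.3-fold higher, adjusted p = 5.9e-09). *Hoxc13* had a TPM of 5.91, 5.55 and 5.89 in Fb-Par and 0.372, 1.06 and 0 in Fb-Skn (log2 fold change 3.40 ± 0.50, adjusted p = 4.5e-05), and *Hoxc12*, too low to be tested, had a mean of 1.795 TPM in Fb-Par and 0 in Fb-Skn. In the *Hoxd* cluster, *Hoxd4* and *Hoxd9* were 2.31-fold and 2.09-fold lower. *Hoxd8*, 1.58-fold lower, lost its call without any one of the 6 samples, with the replicate number as a block, and with library size alone, limma or RLE factors (the scaling of DESeq2). None of the 11 *Hoxa* genes in the table reached the filter, and the highest mean TPM among them was 0.383, of *Hoxa4* in Fb-Par. The count of 15 lower genes was 12 with library size alone as the scaling and 8 under the filter of 10 counts in every library.

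**Figure D3:**
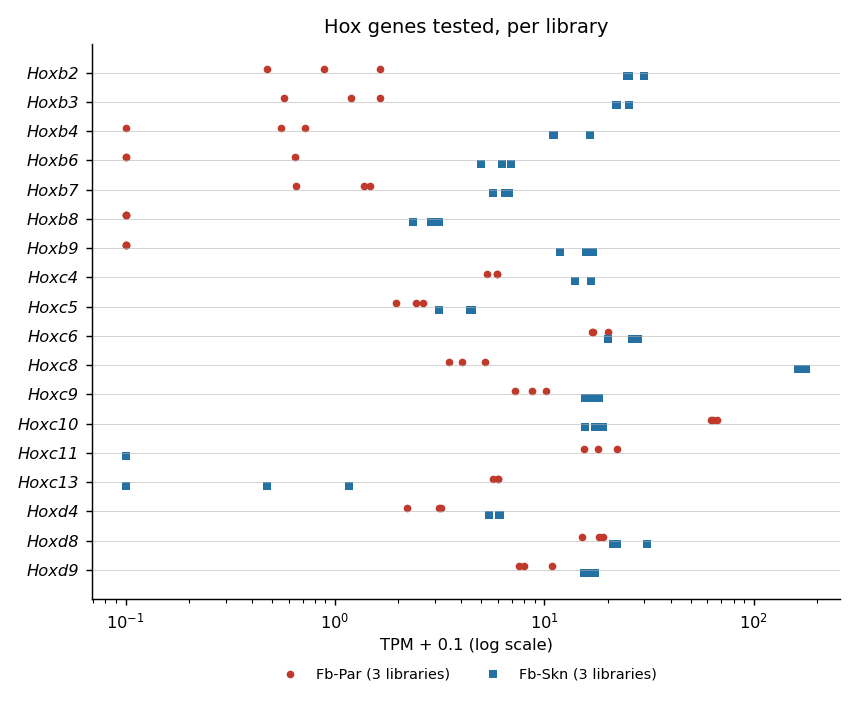
TPM of the 18 tested *Hox* genes in each library with 0.1 added (horizontal axis, log scale), Fb-Par as circles and Fb-Skn as squares, 3 libraries each; a gene with TPM 0 sits at 0.1. *Hoxb2* to *Hoxb9* and *Hoxc8* lie lower in Fb-Par, and *Hoxc10*, *Hoxc11* and *Hoxc13* higher.

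Other transcription factors that pattern the embryo differed as often in one direction as in the other. Of 42 tested, 17 were higher and 17 lower in Fb-Par, and 27 of these 34 were DE genes. With at least 10 counts asked of every library, 7 were higher and 5 lower. In Fb-Skn the Iroquois factors stood out. *Irx1* had a TPM of 65.7, 69.2 and 67.5 in Fb-Skn and 0 counts in every Fb-Par library (at least 296-fold lower, adjusted p = 1.4e-13). *Irx2*, its neighbour in the same cluster, had a TPM of 1.02, 2.22 and 3.37 in Fb-Par and 60.5, 55.6 and 69.5 in Fb-Skn (log2 fold change -4.97 ± 0.23, adjusted p = 1.2e-10), and *Irx5* and *Irx3*, of the other cluster, were 14.3-fold and 4.04-fold lower. *Tbx5*, a T-box factor known from the forelimb and the heart, had 7.39, 9.06 and 8.57 TPM in Fb-Skn and 0 counts in Fb-Par (at least 54.6-fold lower, adjusted p = 7.9e-10). *Alx4*, a homeobox factor of the limb and skull, was 12.9-fold lower. The most abundant of the factors lower in Fb-Par was *Prrx2*, a mesenchymal homeobox gene, with a TPM of 154, 142 and 144 in Fb-Par and 699, 705 and 716 in Fb-Skn (log2 fold change -2.42 ± 0.043, adjusted p = 2.3e-15), whereas its relative *Prrx1* had a TPM of 192, 195 and 191 in Fb-Par and 173, 180.2 and 181 in Fb-Skn and did not pass.

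Higher in Fb-Par were nuclear receptors of the COUP family and forkhead factors. *Nr2f1* had a TPM of 52.4, 44.2 and 48.2 in Fb-Par and 1.74, 0.876 and 1.26 in Fb-Skn (log2 fold change 5.04 ± 0.16, adjusted p = 1.5e-12), and *Nr2f2* had a TPM of 196, 188 and 173 in Fb-Par and 18.5, 24 and 22.4 in Fb-Skn (log2 fold change 2.96 ± 0.077, adjusted p = 1.7e-13). *Foxd1*, a forkhead factor of mesenchymal progenitors, had a TPM of 18.2, 19.7 and 18.9 in Fb-Par and 0.152, 0 and 0.258 in Fb-Skn (adjusted p = 7.7e-10). *Foxc2* and *Foxc1*, forkhead factors of vessel and cartilage precursors, were 16.3-fold and 4.49-fold higher. *Meox2*, a homeobox gene of somite and limb muscle development, had a TPM of 93.3, 93.5 and 94.7 in Fb-Par and 10.1, 10.4 and 10.3 in Fb-Skn (log2 fold change 3.04 ± 0.061, adjusted p = 9.7e-15). *Gata6* and *Tbx2* were 20.9-fold and 7.599-fold higher. *Pitx1*, a determinant of hindlimb identity, had 5.67, 3.75 and 4.54 TPM in Fb-Par and at most 2 counts in a Fb-Skn library (adjusted p = 1.3e-07). *Tbx4*, the hindlimb counterpart of *Tbx5*, reached at most 0.168 TPM in any library of either type and was not tested. Except for *Hoxc6*, the position genes named with a call did not overlap between the types, which such a choice of genes makes likely.

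Of 10 fibrillar collagen genes tested, 3 were higher and 6 lower in Fb-Par (median -0.43). *Col1a1*, the main chain of collagen I, was the most abundant transcript among them, with a TPM of 13630, 14070 and 13460 in Fb-Par and 20570, 21430 and 21220 in Fb-Skn (log2 fold change -0.77 ± 0.017, adjusted p = 3.2e-14). *Col1a2*, its partner, was also lower but varied between the Fb-Skn libraries, at a TPM of 3045, 2790 and 3836 in Fb-Par and 4171, 7277 and 5621 in Fb-Skn (log2 fold change -0.97 ± 0.15, adjusted p = 6e-05). *Col3a1*, the fibrillar collagen of compliant tissue, went the other way, at a TPM of 8113, 8754 and 8177 in Fb-Par and 4382, 4554 and 4471 in Fb-Skn (log2 fold change 0.75 ± 0.025, adjusted p = 3.3e-12). The largest positive fold change was that of *Col11a1*, a collagen known from cartilage fibrils, with a TPM of 456, 467 and 471 in Fb-Par and 30.5, 32.98 and 31.8 in Fb-Skn (log2 fold change 3.72 ± 0.037, adjusted p = 6.8e-18). *Col5a3* was 3.22-fold higher, while *Col5a1* and *Col5a2* were 1.38-fold and 1.55-fold lower.

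Cartilage-type matrix genes were higher in Fb-Par in 10 of 17 tested cases and lower in 1 (median 1.81). *Col9a1*, a collagen of cartilage fibril surfaces, had 23.2, 25.1 and 25.3 TPM in Fb-Par and at most 1 count in a Fb-Skn library (adjusted p = 1.5e-12). *Prg4*, the lubricating proteoglycan of joints, had a TPM of 12.4, 10.8 and 12.2 in Fb-Par and 0.173, 0.528 and 0.262 in Fb-Skn (log2 fold change 5.04 ± 0.23, adjusted p = 9.8e-11). *Sox6* and *Sox5*, transcription factors of cartilage that are also known from neural cells, had 3.65, 4.49 and 3.11 and 2.37, 2.31 and 1.74 TPM in Fb-Par, and *Sox5* had 0 counts in Fb-Skn. *Acan*, aggrecan, was below 2 TPM in all libraries, and *Cilp*, a cartilage intermediate layer protein, was the member lower in Fb-Par (a TPM of 83.3, 80.95 and 86.7 in Fb-Par and 219, 237 and 232 in Fb-Skn). When 10 counts were asked of every library, 2 members were higher and the median was 0.11, since most of the 10 were near 0 in Fb-Skn.

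Of 10 small leucine-rich proteoglycans tested, which bind collagen and regulate its fibrils, 5 were higher and 1 lower in Fb-Par (median 1.07). *Prelp* had a TPM of 247, 251 and 251 in Fb-Par and 78.9, 81.7 and 80.8 in Fb-Skn (log2 fold change 1.48 ± 0.038, adjusted p = 1.3e-13), and *Dcn*, decorin, had a TPM of 2570, 2505 and 2614 in Fb-Par and 1345, 1357 and 1307 in Fb-Skn (log2 fold change 0.79 ± 0.027, adjusted p = 4.7e-12). *Bgn*, biglycan, was the most abundant at a TPM of 4367, 4527 and 4553 in Fb-Par and 3943, 4176 and 4234 in Fb-Skn and did not pass (adjusted p = 0.37). *Ogn*, osteoglycin, passed with a TPM of 8.53, 6.62 and 76.5 in Fb-Par and 1.59, 1.54 and 1.81 in Fb-Skn (adjusted p = 0.0045), but its level rested on 1 library. Without sample 3 of Fb-Par its log2 fold change was 2.05 (adjusted p = 0.045), and its call was also lost without any one of the Fb-Skn samples and with limma. *Fmod*, fibromodulin, was 6.64-fold lower.

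Basement membrane genes were higher in Fb-Par in 14 of 20 tested cases and lower in 5 (median 0.59), and these 2 counts were identical under every alternative but the filter of 10 counts in every library, where they were 13 and 3. Basement membranes surround each Schwann cell and axon unit, each perineurial cell, and the vessels of a nerve. The laminin chains *Lama2*, *Lama4* and *Lama5* were 6.63-fold, 2.58-fold and 15.9-fold higher. For *Lama2*, the chain of the laminin of Schwann cells and muscle, TPM was 53.3, 49.02 and 53.7 in Fb-Par and 6.58, 7.18 and 7.45 in Fb-Skn (log2 fold change 2.73 ± 0.066, adjusted p = 7.9e-14). *Lamc1* had a TPM of 498, 492 and 511 in Fb-Par and 146, 169 and 159.6 in Fb-Skn (log2 fold change 1.51 ± 0.039, adjusted p = 1.5e-13). *Agrn*, a heparan sulfate proteoglycan, was 3.29-fold higher, and *Col15a1*, a collagen that bridges basement membranes and fibrils, had a TPM of 325, 403 and 230.4 in Fb-Par and 59.3, 64.96 and 51.4 in Fb-Skn (log2 fold change 2.30 ± 0.15, adjusted p = 7.9e-09) with the widest spread of the list in Fb-Par. Lower in Fb-Par was *Nid2*, one of 2 nidogens that link laminin and collagen IV, with a TPM of 108, 104 and 104 in Fb-Par and 665, 681 and 686 in Fb-Skn (log2 fold change -2.84 ± 0.028, adjusted p = 6.4e-18), whereas the other nidogen, *Nid1*, was 1.49-fold higher. *Lamb3* and *Lama3*, chains of the laminin beneath epithelia, were 25.9-fold and 6.63-fold lower, both at low TPM in Fb-Skn (means of 15.7 and 1.65). *Col4a3* was 5.86-fold lower, opposite to *Col4a1* and *Col4a2*.

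Among metalloproteinases, their ADAMTS relatives and the TIMP inhibitors, 14 of 30 tested genes were higher and 10 lower in Fb-Par. Of the ADAMTS proteases known to cut proteoglycans, *Adamts5* was higher, with a TPM of 120, 124 and 114 in Fb-Par and 7.04, 6.94 and 7.28 in Fb-Skn (log2 fold change 3.93 ± 0.060, adjusted p = 5.1e-16), as were *Adamts15*, 9.67-fold higher, and *Adamts9*, 18.8-fold higher. *Adamts1*, a protease of the same kind, was 1.83-fold lower, and *Adamts6* was 2.24-fold lower. *Mmp15*, a membrane-bound metalloproteinase, had a TPM of 28.9, 28 and 25.7 in Fb-Par and 0.641, 0.892 and 0.781 in Fb-Skn (log2 fold change 5.01 ± 0.12, adjusted p = 8.1e-14). Lower in Fb-Par were *Mmp3*, the protease stromelysin 1, with a TPM of 0.3203, 0.123 and 0.117 in Fb-Par and 16.98, 20.8 and 17.4 in Fb-Skn (adjusted p = 6.5e-09), and *Mmp9*, at 7.08-fold lower. *Mmp2*, the most abundant protease of the list, had a TPM of 917, 899.6 and 928 in Fb-Par and 1518, 1543 and 1526 in Fb-Skn (log2 fold change -0.89 ± 0.022, adjusted p = 1.1e-13). *Timp1* and *Timp3* were 2.02-fold and 1.62-fold higher. *Mmp11* varied more within the types than between them, from 1.47 to 33.0 TPM in Fb-Par, and did not pass.

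Of 14 contractile genes, all tested, 5 were higher and 7 lower in Fb-Par (median -0.13). *Acta2*, the smooth muscle actin of myofibroblasts, had a TPM of 4995, 5014 and 5146 in Fb-Par and 10110, 10270 and 10540 in Fb-Skn (log2 fold change -1.18 ± 0.025, adjusted p = 1.9e-14). *Cnn1* and *Tagln*, which bind actin, were 1.77-fold and 1.39-fold lower, and *Myocd*, the coactivator of the smooth muscle programme, was 3.65-fold lower. *Actg2* and *Synpo2* were 2.48-fold and 14.8-fold higher, and *Myl9* and *Tpm1* did not pass.

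Bone morphogenetic proteins (BMPs) bind receptors that act through Smad proteins, and secreted antagonists such as gremlin 1 and noggin hold them away from these receptors. In the TGF-beta and BMP list, 12 of 30 tested genes were higher and 9 lower in Fb-Par (median 0.13), and the ligands *Bmp2* and *Bmp4* lay on the other side from gremlin 1 and noggin. *Bmp4* had a TPM of 26.8, 27.5 and 25.8 in Fb-Par and 1.87, 1.07 and 1.16 in Fb-Skn (log2 fold change 4.11 ± 0.18, adjusted p = 5.2e-11). *Bmp2* had a TPM of 12.3, 10.5 and 11.8 in Fb-Par and 2.01, 1.58 and 1.63 in Fb-Skn (log2 fold change 2.56 ± 0.19, adjusted p = 3.5e-08). In contrast, *Grem1*, gremlin 1, had a TPM of 8.19, 7.92 and 7.73 in Fb-Par and 635, 671 and 670.1 in Fb-Skn (log2 fold change -6.52 ± 0.041, adjusted p = 7.6e-20). *Nog*, noggin, had a TPM of 5.38, 7.25 and 7.38 in Fb-Par and 170.2, 167 and 169.9 in Fb-Skn (log2 fold change -4.82 ± 0.11, adjusted p = 3.3e-14). Every Fb-Par library was above every Fb-Skn library for both ligands and below for both antagonists. Of the other ligands, *Bmp6* did not pass and *Bmp3* was 1.25-fold lower with libraries that overlapped and did not pass with limma. The antagonists were not all lower. *Chrd* was 1.93-fold lower, whereas *Chrdl1*, a chordin-like antagonist, was higher with a TPM of 13.2, 11.4 and 10.2 in Fb-Par and 0.0894, 0.256 and 0.254 in Fb-Skn (log2 fold change 5.71 ± 0.21, adjusted p = 8.9e-12). Of the follistatin family, *Fstl3* was 1.42-fold lower, *Fstl1* was 1.14-fold higher, and *Fst*, 1.36-fold higher, lost its call with DESeq2, with the 6 libraries alone, with the replicate number as a block and without sample 1 or 3 of either type. Of the *Id* genes, direct targets of BMP signals, *Id2*, *Id4* and *Id3* were 2.41-fold, 1.42-fold and 1.26-fold higher, and *Id1* did not pass (adjusted p = 0.22). *Inhba*, a subunit of activin, and *Tgfb3* were 2.81-fold and 2.11-fold lower.

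Wnt ligands act through Frizzled receptors, R-spondins amplify the signal at the cell surface, and the Sfrp, Dkk and Wif proteins block it outside the cell. Of 18 genes tested, 5 were higher and 8 lower in Fb-Par (median 0.03). The R-spondins called in this list, *Rspo1* and *Rspo4*, were lower in Fb-Par. *Rspo1* had a TPM of 7.17, 9.89 and 8.81 in Fb-Par and 198, 192 and 197 in Fb-Skn (log2 fold change -4.66 ± 0.082, adjusted p = 2e-15). *Rspo4* had 0 counts in every Fb-Par library against 26.7, 27.5 and 27.3 TPM in Fb-Skn (at least 34.9-fold lower, adjusted p = 2.6e-08). *Wnt4* had a TPM of 6.08, 7.42 and 6.81 in Fb-Par and 38.6, 42.5 and 41.1 in Fb-Skn (log2 fold change -2.74 ± 0.074, adjusted p = 2.9e-13), and *Wnt5a*, *Wnt11* and *Wnt9a* were 4.69-fold, 4.23-fold and 3.36-fold lower. *Wnt2* was the ligand that was higher in Fb-Par, with a TPM of 10.98, 9.99 and 7.84 in Fb-Par and 1.105, 1.42 and 0.784 in Fb-Skn (log2 fold change 2.95 ± 0.32, adjusted p = 1.6e-06). The inhibitors were divided, since *Sfrp1* was higher in Fb-Par with a TPM of 76.5, 76.3 and 77.4 in Fb-Par and 4.34, 6.103 and 4.71 in Fb-Skn (log2 fold change 3.78 ± 0.066, adjusted p = 1.8e-15) while *Wif1* was lower. *Axin2* and *Nkd2*, targets of the pathway given with the dermal markers, were 1.87-fold and 2.13-fold lower.

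The insulin-like growth factors IGF1 and IGF2 circulate and act locally in complexes with 6 classical binding proteins. Of 10 IGF system genes tested, 6 were higher and 2 lower in Fb-Par (median 0.73). *Igfbp6* had a TPM of 895, 886 and 843 in Fb-Par and 60.9, 54.5 and 57.7 in Fb-Skn (log2 fold change 3.77 ± 0.053, adjusted p = 1.6e-16), and *Igfbp5* had a TPM of 181, 181 and 186 in Fb-Par and 4.79, 5.16 and 4.797 in Fb-Skn (log2 fold change 5.07 ± 0.051, adjusted p = 6.8e-18). *Igfbp4* was 12.1-fold higher. *Igfbp3* alone among the called binding proteins was lower in Fb-Par, with a TPM of 87.8, 84.1 and 83.5 in Fb-Par and 307, 320.4 and 316 in Fb-Skn (log2 fold change -2.04 ± 0.033, adjusted p = 1.1e-15). Both ligands were higher in Fb-Par, *Igf1* with a level 2.03-fold higher and *Igf2* with a TPM of 12.8, 15.5 and 14.3 in Fb-Par and 0.195, 0.0373 and 0.185 in Fb-Skn (log2 fold change 6.46 ± 0.24, adjusted p = 8.6e-12). Libraries of the named IGF genes did not overlap between the types, which their calls make likely.

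**Figure D4:**
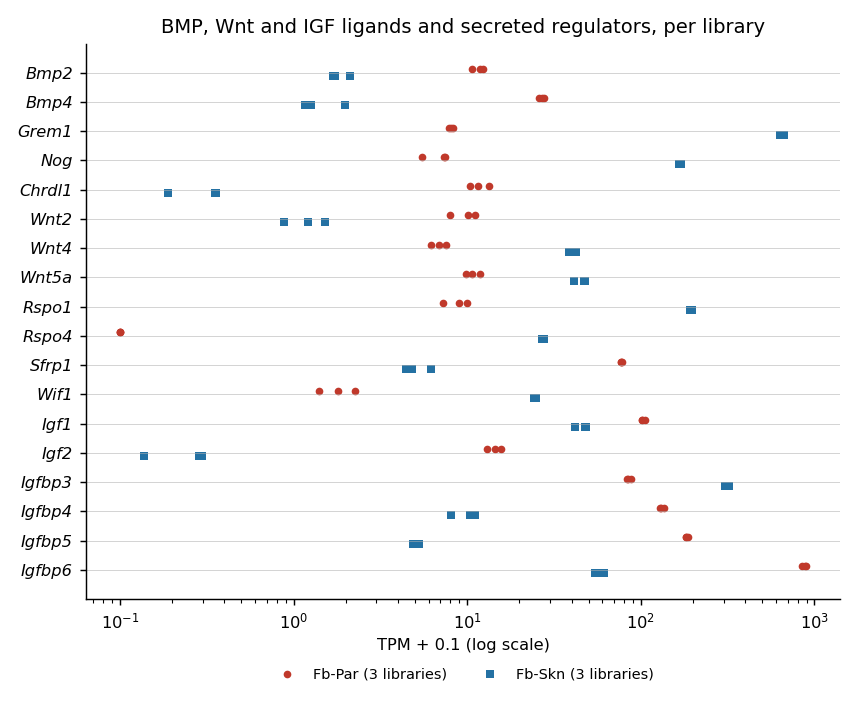
TPM of BMP, Wnt and IGF ligands and of their secreted regulators in each library with 0.1 added (horizontal axis, log scale), Fb-Par as circles and Fb-Skn as squares, 3 libraries each. *Bmp2*, *Bmp4*, *Wnt2*, *Igf1* and *Igf2* lie to the right in Fb-Par, and *Grem1*, *Nog*, *Rspo1* and *Rspo4* to the left.

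The miRNA gene *Mir675*, which is known to lie in the *H19* transcript next to *Igf2*, was counted in the table as a gene of its own (chromosome 1, 215745981 to 215746064, against chromosome 1, 215828102 to 215846911 for *Igf2*, both on the minus strand of rn6). It had 56 to 82 counts per library in Fb-Par, a TPM of 178, 166 and 134, and 0 counts in every Fb-Skn library (at least 20-fold higher, adjusted p = 5.2e-08). TPM is inflated for so short a gene, and libraries of poly(A) RNA do not measure mature miRNAs, so the value is not a level of the miRNA. The hairpin of 84 bases is shown from RefSeq (build GRCr8, chr1:207161752-207161835, minus strand) because it is the interval that was counted, with the 2 mature arms in capitals.

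Mir675 hairpin: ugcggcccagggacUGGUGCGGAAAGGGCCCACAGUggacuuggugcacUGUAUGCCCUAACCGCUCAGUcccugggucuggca

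Retinoic acid is made from retinal by the ALDH1A enzymes, carried in the cell by CRABP proteins, sensed by RAR receptors and broken down by CYP26 enzymes. Of 15 genes tested in this list, 11 were higher and 3 lower in Fb-Par, with a median of 2.67, or 1.29 with *Aldh1a1*, *Rbp4* and *Crabp1*, which had 0 counts in 1 type, at their bounds. *Aldh1a2* had a TPM of 28.9, 29.6 and 31.6 in Fb-Par and 0.569, 0.838 and 0.646 in Fb-Skn (log2 fold change 5.29 ± 0.13, adjusted p = 1.3e-13). *Aldh1a3* had 21.01, 21.7 and 19.5 TPM in Fb-Par and at most 5 counts in a Fb-Skn library (adjusted p = 7.6e-11), and *Aldh1a1* had 1.82, 2.68 and 2.09 TPM against 0 counts. All 3 synthesizing enzymes were thus higher in every Fb-Par library. *Rarb*, a receptor that is itself induced by retinoic acid, had a TPM of 8.08, 7.57 and 7.58 in Fb-Par and 0.237, 0.272 and 0.539 in Fb-Skn (log2 fold change 4.31 ± 0.24, adjusted p = 1.2e-09), and *Cyp26b1* had a TPM of 19.8, 19.1 and 19.99 in Fb-Par and 1.25, 1.29 and 1.37 in Fb-Skn (log2 fold change 3.75 ± 0.11, adjusted p = 5.2e-13). The carriers were opposed, with *Crabp2* at a TPM of 23.97, 28.5 and 19.3 in Fb-Par and 2.76, 3.16 and 2.09 in Fb-Skn (log2 fold change 3.00 ± 0.25, adjusted p = 9.4e-08), *Crabp1* at 187, 181 and 183 TPM in Fb-Skn and 0 counts in every Fb-Par library (at least 263-fold lower, adjusted p = 1.1e-13), and *Fabp5*, an alternative carrier, 4.04-fold lower. *Rarg* overlapped between the types, with an adjusted p of 0.0062 and, with DESeq2, of 0.014, and *Rara* did not pass. Under the filter of 10 counts in every library, 4 members were higher and 1 lower.

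The study examined 29 soluble factors known to act on axons in these same samples, so the list is not independent evidence of a direction. Of 22 tested, 7 were higher and 9 lower in Fb-Par (median 0.05). Beside *Spp1*, *Serpine2*, a protease inhibitor also called glia-derived nexin, was the member most increased in Fb-Par, with a TPM of 79.6, 73.2 and 83 in Fb-Par and 4.53, 5.58 and 6.12 in Fb-Skn (log2 fold change 3.72 ± 0.093, adjusted p = 1.1e-13). *Cntf*, ciliary neurotrophic factor, which Schwann cells are known to make, was 2.097-fold higher, and *Fgf1* was 2.84-fold higher. The neurotrophin *Bdnf* went the other way, with a TPM of 5.86, 5.98 and 5.84 in Fb-Par and 14.3, 13.3 and 14.9 in Fb-Skn (log2 fold change -1.41 ± 0.097, adjusted p = 1.2e-08). *Vegfa*, the vascular growth factor, was the most abundant member that was lower in Fb-Par, at a TPM of 103, 100.3 and 101 in Fb-Par and 301, 310.2 and 311 in Fb-Skn (log2 fold change -1.75 ± 0.030, adjusted p = 1.7e-15). *Fgf10*, *Nrg1* and *Hgf* were 5.64-fold, 2.67-fold and 7.396-fold lower, the last of them at a low level in both types. *Gdnf* had a TPM of 2.605, 0.903 and 1.15 in Fb-Par and 5.24, 9.61 and 3.57 in Fb-Skn and passed with all libraries (adjusted p = 0.002), but its adjusted p was 0.011, 0.012 and 0.018 without sample 2 of Fb-Par, sample 3 of Fb-Par and sample 2 of Fb-Skn. *Lgals1*, *Thbs1*, *Fgf2* and *Ptn* did not pass.

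Axon guidance ligands were higher in Fb-Par in 11 of 22 tested cases and lower in 4 (median 0.38). *Reln*, the large extracellular guide of migrating neurons, had 11.5, 11.4 and 10.1 TPM in Fb-Par and 0 counts in every Fb-Skn library (at least 183-fold higher, adjusted p = 1.2e-12). *Ntn4* was the most abundant of those higher in Fb-Par with a TPM of 309, 303 and 294 in Fb-Par and 54.7, 60.3 and 54.9 in Fb-Skn (log2 fold change 2.26 ± 0.054, adjusted p = 6.5e-14). *Ntng1*, a membrane-anchored netrin, had a TPM of 14.6, 15.98 and 16.5 in Fb-Par and 0.864, 0.989 and 1.03 in Fb-Skn (log2 fold change 3.88 ± 0.14, adjusted p = 7.3e-12). *Sema3e* and *Sema3d*, secreted semaphorins, were 6.45-fold and 2.94-fold higher. Lower in Fb-Par were *Ntn1*, the classical netrin, with a TPM of 29.99, 36.2 and 33.6 in Fb-Par and 114, 121 and 126 in Fb-Skn (log2 fold change -2.01 ± 0.076, adjusted p = 1.2e-11), *Sema3f*, at 8.59-fold lower, *Slit2*, at 2.41-fold lower, and *Efna5*, at 5.67-fold lower. *Efna5* rested on few counts, 1 to 7 per library in Fb-Par and 18 to 26 in Fb-Skn. Netrins and class 3 semaphorins both had members in each direction, so these families were split within themselves.

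Neural adhesion molecules were higher in Fb-Par in 11 of 15 tested cases and lower in 2 (median 2.06). *Cadm4*, an adhesion molecule of the Schwann cell and axon contact, had a TPM of 560, 502 and 521 in Fb-Par and 48.3, 49.3 and 42.1 in Fb-Skn (log2 fold change 3.35 ± 0.062, adjusted p = 4e-15). *L1cam*, which joins axons in bundles and is also made by Schwann cells, had a TPM of 12.7, 13.3 and 10.9 in Fb-Par and 0.0939, 0.143 and 0.284 in Fb-Skn (log2 fold change 5.99 ± 0.20, adjusted p = 3.5e-12). *Chl1*, its close homologue, had 12.2, 13.99 and 14.2 TPM in Fb-Par and 0 counts in Fb-Skn (at least 73.2-fold higher, adjusted p = 4.4e-11), and *Cntn2* had a TPM of 23.6, 19.1 and 21.8 in Fb-Par and 0.182, 0.0835 and 0.248 in Fb-Skn (log2 fold change 6.78 ± 0.20, adjusted p = 6.6e-13). Under the filter of 10 counts in every library, 4 members were higher. The 2 members lower in Fb-Par were *Ncam1*, with a TPM of 48.3, 48.05 and 48.2 in Fb-Par and 171, 194 and 182 in Fb-Skn (log2 fold change -2.07 ± 0.039, adjusted p = 5e-15), and *Alcam*, at 3.94-fold lower. Schwann cells are known to express several of the higher members, and the Schwann cell markers moved the same way (10 of 12 higher, summed TPM 300.5 to 308 against 20.3 to 23.1), and their part in this result was not tested.

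Complement is a cascade of serum proteins that runs from C1 through C3 to a pore of C5 to C9. Of 24 genes tested, 13 were higher and 6 lower in Fb-Par (median 1.92). Of the terminal components, *C7* stood at 81.7, 76.8 and 75.4 TPM in Fb-Par and 0 counts in every Fb-Skn library (at least 296-fold higher, adjusted p = 1.1e-13) and *C6* at 13.4, 14.4 and 14.2 TPM, against at most 0.14 TPM in a Fb-Skn library. Soluble inhibitors were higher, with *Serping1*, the C1 inhibitor, at a TPM of 247, 248 and 248 in Fb-Par and 61.6, 67.9 and 64.5 in Fb-Skn (log2 fold change 1.79 ± 0.041, adjusted p = 4e-14), and *Clu*, clusterin, at a TPM of 159, 153 and 150.5 in Fb-Par and 24.1, 23.9 and 30.4 in Fb-Skn (log2 fold change 2.41 ± 0.083, adjusted p = 4.4e-12). The proteases *C1r* and *C1s* were 2.05-fold and 2.58-fold lower, the membrane inhibitors *Cd55* and *Cd59* were 2.19-fold and 1.32-fold lower, and *C3* had a TPM of 0.246, 0.122 and 0.0772 in Fb-Par and 3.36, 3.403 and 3.74 in Fb-Skn (log2 fold change -4.64 ± 0.33, adjusted p = 1.8e-08). *C1qa*, *C1qb* and *C1qc*, known products of macrophages, were 4.15-fold, 5.93-fold and 9.72-fold higher. The leukocyte markers, 2 of which are *C1qa* and *C1qb* themselves, moved with them (11 of 11 higher, summed TPM 313 to 336 against 95.7 to 103), and their part was not tested. Under the filter of 10 counts in every library, 5 members were higher and 5 lower, and the median turned to -0.14.

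Of 15 chemokine ligands tested, 3 were higher and 5 lower in Fb-Par, or 3 lower in the fit of the 6 libraries alone and 2 under the filter of 10 counts in every library. The median was -0.56, and 0.16 without sample 1 of Fb-Par. *Ccl2*, which draws monocytes, had a TPM of 51.1, 49.5 and 57.1 in Fb-Par and 203, 209.9 and 209.7 in Fb-Skn (log2 fold change -2.13 ± 0.061, adjusted p = 5.3e-13), and *Ccl7* was 2.28-fold lower. *Ccl20*, the ligand of CCR6, had 47.8, 44.1 and 39.5 TPM in Fb-Skn and at most 1 count in a Fb-Par library (adjusted p = 8e-12). *Cxcl16*, a membrane-bound chemokine, was the highest of the opposite set at a TPM of 43.3, 46.9 and 45.8 in Fb-Par and 4.305, 4.81 and 5.99 in Fb-Skn (log2 fold change 3.02 ± 0.11, adjusted p = 1.3e-11), and *Cxcl12* was 1.48-fold higher. Interferon-stimulated genes were higher in Fb-Par in 16 of 33 tested cases and lower in 4 (median 0.63). *Gbp2*, a guanylate-binding protein, had a TPM of 50.4, 48.4 and 45.1 in Fb-Par and 11.6, 12.96 and 12.5 in Fb-Skn (log2 fold change 1.81 ± 0.074, adjusted p = 3e-11), and *Ifi44* had a TPM of 4.97, 5.68 and 6.35 in Fb-Par and 0.688, 0.215 and 0.284 in Fb-Skn (log2 fold change 3.62 ± 0.32, adjusted p = 2.4e-07), whereas *Gbp5* and *Usp18* were 4.84-fold and 5.99-fold lower. *Usp18* rested on few counts, 2 to 9 per library in Fb-Par and 15 to 34 in Fb-Skn. Among interferon genes, 10 were higher under the filter of 10 counts in every library. The classical members *Isg15*, *Mx1* and *Ifit2* did not pass, the latter at a TPM of 65.96, 69.9 and 68.5 in Fb-Par and 67.7, 63.8 and 69.1 in Fb-Skn.

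Genes of the G2 and M phases of the cell cycle moved together. All 48 in the table were tested, 46 were lower in Fb-Par and none was higher (median -1.38), against 22.4% of all genes lower, and 43 to 46 were lower under each of the alternative settings. The changes were of modest size, and *Cdca3* alone was a DE gene. *Cdk1*, the kinase that drives entry into mitosis, had a TPM of 9.82, 10.9 and 10.4 in Fb-Par and 34.6, 30.4 and 36.6 in Fb-Skn (log2 fold change -1.86 ± 0.12, adjusted p = 4.4e-09). *Ccnb1*, cyclin B1, had a TPM of 5.11, 5.12 and 5.61 in Fb-Par and 15.8, 19.2 and 17.3 in Fb-Skn (log2 fold change -1.87 ± 0.12, adjusted p = 8.2e-09), and *Plk1*, polo-like kinase 1, had a TPM of 4.24, 3.39 and 4.48 in Fb-Par and 12.6, 12.8 and 14.3 in Fb-Skn (log2 fold change -1.85 ± 0.12, adjusted p = 8.5e-09). In each of these genes the highest Fb-Par library was below the lowest Fb-Skn library. *Top2a*, the topoisomerase that untangles chromosomes, and *Mki67*, the Ki-67 protein, were 2.88-fold and 2.43-fold lower. *Ube2c*, which marks mitotic proteins for destruction, was 3.83-fold lower. *Cdc25c* and *Hjurp* were the members that did not pass (adjusted p = 0.49 and 0.026).

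Promoters of such genes are known for 2 short elements, the cell cycle homology region (TTTGAA) and the CCAAT box, which take part in their timing. RefSeq promoters of build GRCr8, from 250 bases before to 50 after the start, were matched for 39 of the 48 genes (40 promoters). TTTGAA stood on either strand in 27 of the 40 (67.5%), against 18.3% of all 33469 promoters and 11.9% of the 10852 promoters of tested genes. CCAAT stood in 29 of the 40 (72.5%), against 37.5% of all and 37.2% of those of tested genes. A match is a description of these letters and not of a bound site. The 3 promoters below are those of the genes with the lowest fold change among members that hold both elements, with both elements in capitals. On the opposite strand TTTGAA reads as TTCAAA, and the CCAAT box reads as ATTGG there. They belong to *Ckap2l* (chr3:136977454-136977753), a spindle protein, with a TPM of 2.16, 2.67 and 2.13 in Fb-Par and 8.02, 7.12 and 9.19 in Fb-Skn (log2 fold change -1.96 ± 0.18, adjusted p = 3e-07), to *Cenpf* (chr13:103760837-103761136), a kinetochore protein, with a TPM of 1.56, 1.42 and 1.55 in Fb-Par and 4.59, 5.32 and 5.3 in Fb-Skn (log2 fold change -1.89 ± 0.10, adjusted p = 7.3e-10), and to *Pttg1* (chr10:28406277-28406576), securin, with a TPM of 2.79, 4.85 and 2.88 in Fb-Par and 12.5, 12.5 and 9.58 in Fb-Skn (log2 fold change -1.87 ± 0.24, adjusted p = 9.8e-06), all on the minus strand.

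Ckap2l: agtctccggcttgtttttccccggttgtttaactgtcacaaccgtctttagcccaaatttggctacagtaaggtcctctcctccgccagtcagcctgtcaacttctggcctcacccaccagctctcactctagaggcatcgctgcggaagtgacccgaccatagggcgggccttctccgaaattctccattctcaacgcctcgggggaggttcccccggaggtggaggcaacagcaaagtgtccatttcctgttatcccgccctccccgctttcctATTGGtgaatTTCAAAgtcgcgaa
Cenpf: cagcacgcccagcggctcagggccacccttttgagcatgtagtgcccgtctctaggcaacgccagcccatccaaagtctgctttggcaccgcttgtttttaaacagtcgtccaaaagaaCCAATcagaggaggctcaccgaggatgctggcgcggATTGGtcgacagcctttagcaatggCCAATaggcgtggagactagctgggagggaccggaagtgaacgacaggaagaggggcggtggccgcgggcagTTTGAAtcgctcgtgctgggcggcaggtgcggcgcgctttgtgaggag
Pttg1: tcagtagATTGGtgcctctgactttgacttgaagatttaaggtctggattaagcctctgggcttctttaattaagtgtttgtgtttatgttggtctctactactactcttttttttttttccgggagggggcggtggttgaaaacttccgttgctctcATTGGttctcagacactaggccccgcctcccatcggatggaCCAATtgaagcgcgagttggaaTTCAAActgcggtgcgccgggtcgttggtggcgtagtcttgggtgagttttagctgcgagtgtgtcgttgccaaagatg

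In *Ckap2l* both elements lay downstream of the annotated start, whereas in *Pttg1* all lay upstream of it. Genes of the S phase, which copy the DNA, did not share this pattern. Of 40 tested, 11 were lower, 1 was higher and 28 did not pass (median -0.34), and 6 were lower with DESeq2, with library size alone, with limma on log2 TPM, with the 6 libraries alone and without sample 2 of Fb-Par. Without sample 1 or 3 of Fb-Par or sample 3 of Fb-Skn, 7 were lower. *Rrm1*, the large subunit of ribonucleotide reductase, had a TPM of 35.2, 35.4 and 33.6 in Fb-Par and 122, 133 and 129 in Fb-Skn (log2 fold change -2.03 ± 0.042, adjusted p = 1.5e-14), and *Tk1*, thymidine kinase, had a TPM of 6.17, 6.75 and 5.96 in Fb-Par and 17.04, 23.5 and 22.6 in Fb-Skn (log2 fold change -1.89 ± 0.12, adjusted p = 6e-09). The replication markers *Mcm2*, with a TPM of 20.5, 16.9 and 15.2 in Fb-Par and 14.9, 15.9 and 17.4 in Fb-Skn, and *Pcna*, with a TPM of 68.5, 53.2 and 60.8 in Fb-Par and 55.8, 58.9 and 60.7 in Fb-Skn, did not pass (adjusted p = 0.92 and 0.38). The E2F element TTTGGCGC stood in 8 of 34 promoters of S phase genes (23.5%) against 0.493% of all promoters and 0.885% of those of tested genes. TTTCCCGC stood in 7 (20.6%) against 0.974% and 1.99%.

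Of 11 genes for D cyclins, their kinases and CDK inhibitors, 3 were higher and 4 lower in Fb-Par, or 2 lower with library size alone and with limma on log2 TPM. *Ccnd1*, cyclin D1, had a TPM of 24.99, 25.8 and 25.4 in Fb-Par and 62.3, 54.8 and 55.2 in Fb-Skn (log2 fold change -1.33 ± 0.068, adjusted p = 4.2e-10), while *Ccnd2* was opposite with a TPM of 241, 251 and 235 in Fb-Par and 104, 126 and 113 in Fb-Skn (log2 fold change 0.93 ± 0.057, adjusted p = 3.1e-09). *Cdkn2b*, an inhibitor of the D cyclin kinases, was 2.22-fold higher, and *Cdkn1c* was 2.75-fold lower. *Cdkn2a* passed with all libraries (adjusted p = 0.005) but not without sample 1 or 2 of Fb-Par or without sample 2 or 3 of Fb-Skn (adjusted p = 0.02, 0.026, 0.012 and 0.046), and *Cdkn1a* and *Cdkn1b* did not pass.

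Genes of the hypoxia response and of glycolysis were lower in Fb-Par in 25 of 34 tested cases and higher in 5 (median -0.56). With limma on log2 TPM, 19 were lower, and the sign of *P4ha1* turned there. *Slc16a3*, the lactate exporter, changed most, with a TPM of 8.59, 6.98 and 9.06 in Fb-Par and 75.8, 76.6 and 76.8 in Fb-Skn (log2 fold change -3.36 ± 0.074, adjusted p = 2.6e-14). *Egln3*, an oxygen sensor that is itself induced by hypoxia, had a TPM of 1.23, 1.72 and 2.49 in Fb-Par and 8.73, 7.31 and 7.4 in Fb-Skn (log2 fold change -2.26 ± 0.20, adjusted p = 2.2e-07), and *Bnip3*, a mitophagy receptor, had a TPM of 104, 102 and 96.1 in Fb-Par and 254, 238 and 250.4 in Fb-Skn (log2 fold change -1.45 ± 0.045, adjusted p = 1.3e-12). *Pfkl*, *Pkm*, *Eno1* and *Gapdh*, enzymes of glycolysis, were 2.22-fold, 1.88-fold, 1.47-fold and 1.48-fold lower. *Ldha*, *Egln1*, *Pgam1*, *Tpi1* and *P4ha1* passed, although their libraries overlapped between the types. *Egln1*, *Tpi1* and *P4ha1* lost their calls with DESeq2, RLE factors, library size alone, limma and the 6 libraries alone, and when 1 of several samples was left out. *Ldha* lost its call with library size alone and limma, and *Pgam1* with limma. In the other direction, *Ndrg1*, a stress-induced gene, had a TPM of 97.6, 101 and 104 in Fb-Par and 32.5, 35.9 and 32.1 in Fb-Skn (log2 fold change 1.44 ± 0.053, adjusted p = 8.9e-12). *Eno2* did not pass, and its mean in Fb-Skn came from sample 2 alone, with 0.545, 11.2 and 0.442 TPM. The core of the hypoxia response element, ACGTG, stood in 18 of 34 promoters of these genes (52.9%) against 19.3% of all promoters and 24.8% of those of tested genes.

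Of 21 immediate early genes, which respond within minutes to serum or handling, 12 were higher and 5 lower in Fb-Par (median 0.25). *Atf3* had a TPM of 20.8, 21.6 and 19.2 in Fb-Par and 4.1, 3.76 and 2.94 in Fb-Skn (log2 fold change 2.35 ± 0.14, adjusted p = 1.6e-09), and *Fosl2* and *Nr4a1* were 2.26-fold and 2.23-fold higher. *Egr2*, which is also the master regulator of myelination and a Schwann cell marker of the list above, had a TPM of 23.5, 23.5 and 22.6 in Fb-Par and 4.37, 3.64 and 3.997 in Fb-Skn (log2 fold change 2.38 ± 0.087, adjusted p = 8.7e-12). *Fos*, *Fosb* and *Jund* were 1.83-fold, 2.94-fold and 1.84-fold lower. *Egr1* and *Dusp1*, at a TPM of 167, 166 and 175 in Fb-Par and 144, 149 and 158 in Fb-Skn and a TPM of 589, 578 and 568 in Fb-Par and 497, 514 and 521 in Fb-Skn, did not pass.

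**Figure D5:**
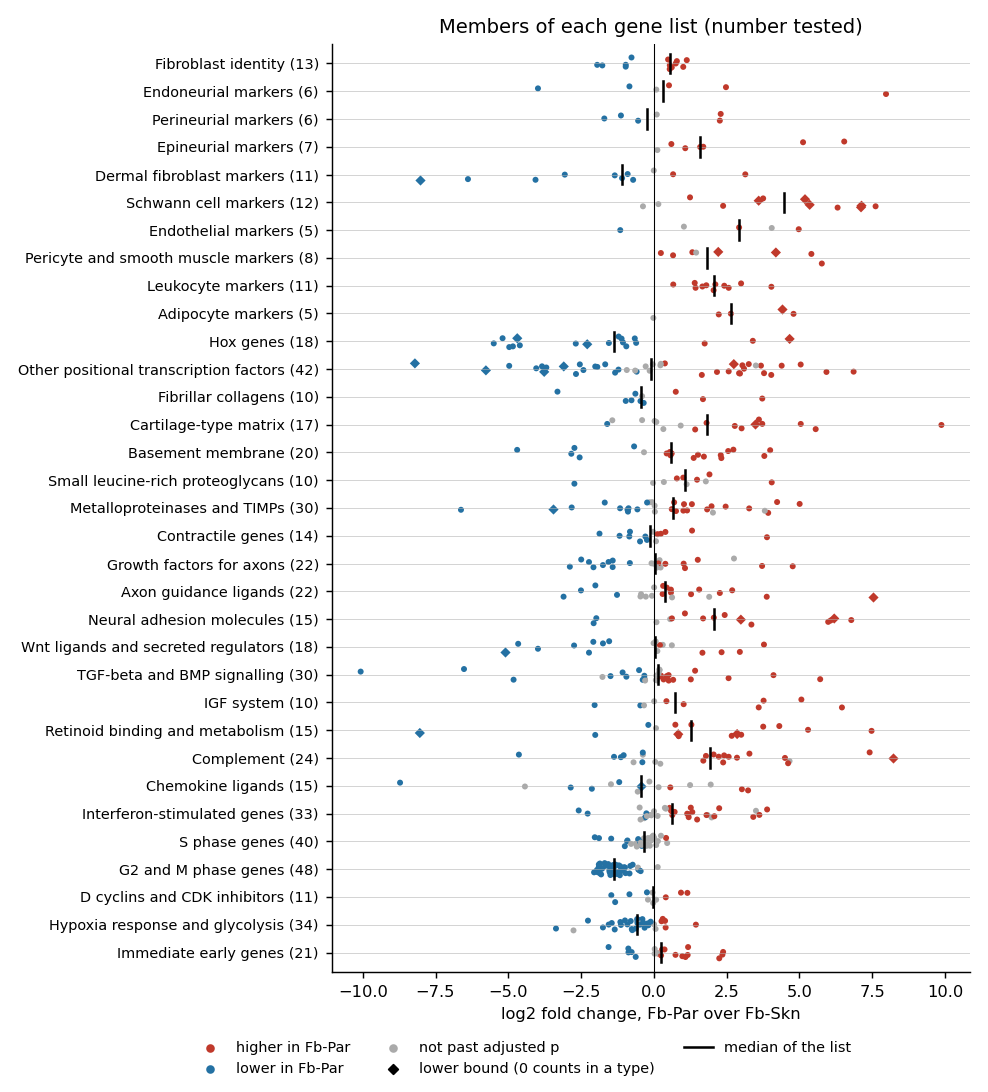
Fold change (log2, Fb-Par over Fb-Skn, horizontal axis) of every tested member of the 33 lists with at least 5 tested genes; red points are higher and blue points lower in Fb-Par at adjusted p under 0.01, grey points did not pass, diamonds are lower bounds for genes with 0 counts in a type, and black bars are medians. G2 and M phase genes form the tightest group to the left of 0, and Schwann cell, leukocyte, neural adhesion, retinoid and complement genes lie mostly to the right.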

How the data were processed

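Poly(A) RNA of cultured rat fibroblasts was sequenced as directional paired-end libraries with reads of 150 bases. Per the submitters' processing notes, FastQC 0.11.7, Trimmomatic 0.38, HISAT2 2.1.0 and featureCounts 1.6.3 were used with the rn6 genome. The strand setting and the annotation release are not given in the sources used here, so overlapping genes cannot be told apart with certainty. As deposited by the authors, raw counts per gene stand in 1 table and TPM in another, for which counts had been divided by gene length and scaled to the same sum in each library, for 32883 genes. A deposited table of FPKM values was not used. Groups came from the sample labels, with 3 samples per type.

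Counts were fitted with edgeR 4.0.16 (R 4.3.3), using TMM factors, filterByExpr, its quasi-likelihood test and all 9 libraries in 1 model, so that the 3 types shared the estimate of the spread. Genes with a Benjamini-Hochberg adjusted p under 0.01 over the 13273 tested genes were called, and those beyond 2 on the log2 scale in either direction were DE genes. Standard errors are approximate, derived as the absolute log2 fold change divided by the square root of its F statistic. For TPM, the value of each of the 3 libraries is given instead. Since 3 libraries against 3 cannot give an exact permutation p below 0.1, single genes were tested in this fit only. A gene with 0 counts in all libraries of a type is given as a lower bound, against a floor of 3 counts per library, which covers counting error only.

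The members of 36 gene lists (771 symbols, of which 759 were found and 585 tested) and the rules for naming genes were chosen with earlier results of these data known. Named genes were, in each direction, the 6 DE genes with the largest fold change among those with a mean of at least 20 TPM in the higher type, the 6 DE genes with the highest mean TPM, and up to 3 called members of each list with a mean of at least 2 TPM and the largest change. The 3 most abundant members of each marker list and the genes whose sequences are shown were added. Some genes that these rules name are not reported here. Other members of a list that are named were chosen after their values were seen. Promoter and miRNA sequences are from RefSeq (GRCr8). Promoters were matched by the Entrez gene identifier of the deposited tables, and the miRNA by symbol. The fit was tested on simulated data with known changes. Replicate libraries differed by more than sampling noise and were counted separately. Alternatives were DESeq2 1.42.0, other scaling factors, other filters, limma 3.58.1 on log2(TPM + 1) and on log2(TPM + 0.1), the 6 libraries alone, the replicate number as a block, a fold-change threshold inside the test, an analysis of variance on TPM with the Tukey-Kramer p under 0.01 and no adjustment across genes, which is the study's test, and each sample left out in turn.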

Additional observations from a re-analysis of the deposited data

How the results depend on the processing

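Of the 6 summary counts under 17 alternatives each, 90 of 102 values stayed within 1.5 times the reported count and 12 moved. Genes lower in Fb-Par past the adjusted p were 1931 with limma on log2(TPM + 1), 1918 with limma on log2(TPM + 0.1) and, at a p under 0.01 not adjusted across genes, 1673 with the Tukey-Kramer test on TPM. DE genes numbered 373 (238 higher, 135 lower) with at least 10 counts in every library, 576 (405 higher, 171 lower) with limma on log2(TPM + 1), and 587 (393 higher, 194 lower) with the fold threshold inside the test. Leaving out 1 sample at a time gave 5370 to 5541 genes past the adjusted p and 1132 to 1171 DE genes. With the replicate number as a block the counts were 5799 and 1116, and 13 of 465 called list members and named genes lost their call. The numbers did not pair the samples, since deviations of same-numbered Fb-Par and Fb-Skn samples correlated at -0.054, -0.026 and -0.076.

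Of the list counts, 1054 of 1120 values stayed within 1.5 times and 66 moved, 24 of them under the filter of 10 counts in every library, which leaves out genes near 0 in 1 type. Signs of list medians were compared only for lists whose main median was more than 0.1 from 0. Lists with a median nearer to 0 were not checked for a change of sign. Among those compared, the median of complement genes changed sign under the filter of 10 counts (-0.14) and that of perineurial markers without a filter (0.0952). The median of contractile genes did so with limma on log2(TPM + 0.1) and log2(TPM + 1) (0.0183 and 0.0186). So did the medians of skeletal muscle markers, which ranged from -0.23 to 2.65 with 1 sample left out, and of chemokines, which ranged from -0.55 to 0.16. *Lpl*, which did not pass, had log2 fold changes of 0.0049 under the filter of 10 counts, 0.0773 with library size alone, 0.1317 and 0.1303 with limma on log2(TPM + 0.1) and log2(TPM + 1), 0.0066 with the 6 libraries alone, and -0.033 to 0.0186 with 1 sample left out. *Tnnt3*, which did not pass either, had 0.02 and 0.0189 with limma on log2(TPM + 0.1) and log2(TPM + 1). Calls of single genes were compared only in fits that still held the gene, so genes taken out by a filter do not count as lost. The fold threshold inside the test and the Tukey-Kramer test were not part of this comparison. Within these limits, 54 of the 465 called list members and named genes lost their call in at least 1 alternative and 1, *P4ha1*, changed sign. The cause of these changes was not tested beyond what the construction of an alternative shows. At 10084584 to 12310506 counts per library, a gene without a count is limited to 3 counts per library, and calls of genes at a few counts are the ones that depend on the filter.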

Other observations

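Some of the largest differences lay outside the lists and were chosen after their values were seen. Both subunits of soluble guanylate cyclase, the receptor for nitric oxide, were far higher in Fb-Par. For *Gucy1b1*, TPM was 209.6, 216 and 214 in Fb-Par and 1.77, 2.35 and 2.08 in Fb-Skn (log2 fold change 6.54 ± 0.12, adjusted p = 2.3e-15), and for *Gucy1a1*, TPM was 45.8, 47.02 and 46.5 in Fb-Par and 0.6401, 0.504 and 0.409 in Fb-Skn (log2 fold change 6.31 ± 0.11, adjusted p = 1.8e-15). Both subunits were chosen by their values, so their shared direction in all 6 libraries is no further evidence. *Epas1*, an oxygen-regulated transcription factor of vessels, had a TPM of 112, 117 and 116 in Fb-Par and 2.25, 1.93 and 2.47 in Fb-Skn (log2 fold change 5.54 ± 0.088, adjusted p = 7.8e-16), opposite to the hypoxia list as a whole. *Cygb*, cytoglobin, a globin of fibroblasts and pericytes, had a TPM of 291, 295 and 283 in Fb-Par and 0.609, 0.996 and 0.7899 in Fb-Skn (log2 fold change 8.35 ± 0.092, adjusted p = 1.7e-17). *Foxs1*, a forkhead factor known from pericytes and the neural crest, had a TPM of 162, 156 and 156 in Fb-Par and 1.305, 1.99 and 1.32 in Fb-Skn (log2 fold change 6.52 ± 0.12, adjusted p = 2.3e-15). The pericyte markers moved the same way (7 of 8 higher, summed TPM 556 to 583 against 285 to 298), and their part was not tested. *Piezo2*, a mechanically gated channel best known from sensory neurons, had a TPM of 73.4, 72.4 and 72.1 in Fb-Par and 1.798, 1.62 and 1.79 in Fb-Skn (log2 fold change 5.23 ± 0.066, adjusted p = 6.5e-17). *Il33*, an alarmin, had a TPM of 239, 234 and 248 in Fb-Par and 27.5, 30.2 and 34.6 in Fb-Skn (log2 fold change 2.82 ± 0.058, adjusted p = 1.4e-14). Both neuropilins, receptors for class 3 semaphorins and VEGF, were higher, *Nrp1* with a TPM of 68.4, 68.5 and 69.2 in Fb-Par and 10.6, 10.8 and 10.4 in Fb-Skn (log2 fold change 2.55 ± 0.044, adjusted p = 1.8e-15) and *Nrp2* with a TPM of 104, 97.8 and 99.7 in Fb-Par and 20.4, 21.5 and 20.7 in Fb-Skn (log2 fold change 2.12 ± 0.047, adjusted p = 3.1e-14).

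In Fb-Skn, *Scx*, scleraxis, the transcription factor of tendon progenitors, had 234, 217 and 231 TPM against 2.41, 2.603 and 4.42 TPM in Fb-Par (log2 fold change -6.32 ± 0.13, adjusted p = 8.2e-15). *Mme*, the membrane protease neprilysin, had 123, 148 and 132 TPM against 9.27, 7.38 and 10.8 TPM (log2 fold change -4.02 ± 0.10, adjusted p = 1.6e-13). *Ndufa4l2*, a mitochondrial protein induced by hypoxia, had 254, 253 and 250.4 TPM against 5.22, 8.27 and 4.04 TPM (log2 fold change -5.59 ± 0.12, adjusted p = 2.4e-14), in the direction of the hypoxia list. *Slpi*, an inhibitor of leukocyte proteases, had 208, 194 and 204 TPM against 2.13, 0.739 and 2.81 TPM (log2 fold change -6.85 ± 0.19, adjusted p = 3e-13). *Avpr1a*, a vasopressin receptor, had 274, 272 and 275 TPM against 17.6, 20.4 and 18.4 TPM (log2 fold change -4.02 ± 0.055, adjusted p = 1.5e-16), and *Gja1*, the gap junction protein connexin 43, had 329, 346 and 357 TPM against 56.1, 52.5 and 55.6 TPM (log2 fold change -2.80 ± 0.039, adjusted p = 1.6e-16). *Vegfd*, a lymphatic growth factor, had 144, 153 and 153 TPM against 19.6, 18.1 and 19.8 TPM (log2 fold change -3.12 ± 0.043, adjusted p = 1.6e-16), like *Vegfa* in direction. The libraries of the types did not overlap in these genes, which follows from their choice by large differences and is no further evidence.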
